A study of Homo sapiens with 2 samples.

Results

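The nuclear pore and its transport receptors were examined in K562 cells, with 47 genes measured out of 18377 in the whole table. The members were found by symbol, as the probes of the array annotated with exactly 1 gene whose symbol names a nucleoporin (NUP and a number), an importin (KPNA, KPNB1, IPO or TNPO) or an exportin (XPO). They comprise 23 nucleoporins, 18 importins and 6 exportins. Of the 47, 46 were measured by 1 probe, and KPNA2 was the average of 2 probes whose differences were 0.71 and 0.78.

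K562 is an established human leukaemia cell line with an active BCR-ABL1 fusion and can be driven towards the red cell lineage. The first culture was grown with erythropoietin (EPO), the cytokine of red cell formation, and treated for 6 h with 2 µM imatinib, which blocks the kinase of the fusion. The second received the same imatinib treatment, and its label names no EPO. It is taken as grown without EPO from the growth protocol. Each group is 1 whole-transcript array of 1 culture of a single cell line, so no value has a replicate error and no test was possible.

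The deposited values were read as log2 and had been centred by the authors on an unknown baseline. A value is therefore read as a deviation from that baseline and not as a level, which also means that the presence of K562 marker transcripts could not be checked. Every difference below was taken on the log2 scale by subtracting the value without EPO. A gene was called at a difference of at least 2-fold, which is 1 on the log2 scale, and all folds rest on reading the logarithm as base 2. Across probes, the standard deviation was 0.134 with EPO and 0.431 without EPO. Among 9 measured erythroid and K562 markers the median difference was 0.25 and 8 were above 0, with the transferrin receptor TFRC at 1.02. The medians were -0.39 for 6 lymphoid markers (0 above 0), -0.35 for 7 granulocyte and monocyte markers (1 above 0) and 0.070 for 7 epithelial and stromal markers (4 above 0), and the part of such shifts in the results below was not tested.

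The nuclear pore is a ring of nucleoporins set in the nuclear envelope. The Y complex and the inner ring form its scaffold, nucleoporins rich in phenylalanine-glycine repeats fill the channel, and filaments and a basket extend to the cytoplasm and the nucleus. Importins and exportins bind cargo, pass through the repeats and are directed by the small GTPase Ran, which is bound to GTP in the nucleus. Classical import uses an importin alpha as adaptor between the cargo and importin beta (KPNB1). In maturing red cell precursors the nucleus condenses and is finally expelled.

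Promoter windows of 4 members are shown to let matches to the searched motifs be seen in genes at both ends of the range. KPNA3 and NUP62CL are the members with the highest and the lowest difference, and NUP88 and NUP133 were chosen after their values were seen, as members at least 2-fold higher with EPO that hold an ETS core. Each window runs from 250 bases before to 50 bases after the gene's start, 5′ to 3′ on the gene's strand, from RefSeq (GRCh38.p14). Capitals mark matches on either strand to the ETS core (CCGGAA), the CCAAT box (CCAAT), the E-box (CACGTG) or the TATA box (TATAAA), of which no 2 overlap here. The TATA box has no match in these 4 windows. The windows are chr13:49792633-49792932 for KPNA3, chr17:5419613-5419912 for NUP88, chr1:229508292-229508591 for NUP133 and chrX:107206384-107206683 for NUP62CL, all on the minus strand.
KPNA3: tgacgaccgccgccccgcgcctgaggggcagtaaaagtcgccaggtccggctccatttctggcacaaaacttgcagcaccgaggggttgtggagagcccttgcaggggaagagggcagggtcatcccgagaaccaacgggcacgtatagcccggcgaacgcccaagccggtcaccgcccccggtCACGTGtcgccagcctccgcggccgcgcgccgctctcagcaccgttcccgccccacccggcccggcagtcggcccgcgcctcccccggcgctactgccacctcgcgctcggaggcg
NUP88: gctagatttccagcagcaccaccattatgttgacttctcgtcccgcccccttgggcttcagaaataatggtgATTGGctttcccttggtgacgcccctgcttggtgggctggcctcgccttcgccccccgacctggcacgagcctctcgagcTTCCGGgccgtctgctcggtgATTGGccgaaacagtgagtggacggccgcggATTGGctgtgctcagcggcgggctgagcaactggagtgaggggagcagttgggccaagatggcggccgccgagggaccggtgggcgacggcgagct
NUP133: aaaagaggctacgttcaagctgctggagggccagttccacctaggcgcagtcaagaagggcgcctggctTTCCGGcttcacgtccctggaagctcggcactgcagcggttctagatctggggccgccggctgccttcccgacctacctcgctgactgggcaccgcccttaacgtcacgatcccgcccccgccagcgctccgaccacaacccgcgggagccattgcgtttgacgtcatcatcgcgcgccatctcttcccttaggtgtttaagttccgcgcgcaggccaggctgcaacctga
NUP62CL: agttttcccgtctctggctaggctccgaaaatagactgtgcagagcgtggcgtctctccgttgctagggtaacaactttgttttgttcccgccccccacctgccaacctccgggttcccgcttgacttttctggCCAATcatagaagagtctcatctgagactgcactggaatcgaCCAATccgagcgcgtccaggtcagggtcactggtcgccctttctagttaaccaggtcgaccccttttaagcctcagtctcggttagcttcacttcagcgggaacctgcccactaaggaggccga

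The KPNA3 window holds 1 E-box, 66 bases before the start. In NUP88 there are 3 CCAAT boxes and 1 ETS core, in NUP133 1 ETS core, and in NUP62CL 2 CCAAT boxes. Promoter windows were matched for 40 of the 47 members, among them 6 of those at least 2-fold higher with EPO. An ETS core stood in 17 of the 40 (42.5%), against 23.2% of the 14208 measured genes with a window and 17.2% of all 35116 windows. A CCAAT box stood in 19 members (47.5%), against 36.3% of measured genes and 34.6% of all windows. For the E-box the share was 15% of members, against 8.88% and 7.26%, and for the TATA box 5.0%, against 8.96% and 11.5%. The median GC content of the members' windows was 63.0%, as it was for all measured genes. CpG content was not matched. The median ratio of observed to expected CpG was 0.92 in members, against 0.77 in measured genes, and the median CpG count 27, against 23. The ETS core and the E-box each contain a CpG, and the part of CpG content in their shares was not tested. Of the 6 windows of members at least 2-fold higher, 2 held an ETS core, and of the 4 windows of members with a difference below 0, 1 did. A match describes the letters only.

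Most members were higher with EPO. Of the 47, 42 had a difference above 0, beside 45.4% of all genes, and the median difference was 0.73, against -0.047 for all genes. At least 2-fold higher were 9 members (19.1%), against 6.19% of all genes, and 1 member (2.13%) was at least 2-fold lower, against 0.898% of all genes. The 9 were the importins KPNA3, KPNA5, KPNA4, KPNB1 and KPNA1 and the nucleoporins NUP93, NUP88, NUP133 and NUP155, and the lower one was NUP62CL. The call has many members near it, with 5 between 1 and 1.1 and another 7 between 0.9 and 1 on the log2 scale. At 1.5-fold, 30 members were higher and 2 lower, beside 18.1% and 4.65% of all genes. Other genes of cellular machinery (proteasome, mitochondrial ribosome, respiratory chain complex I, spliceosome and RNA polymerase II, 196 genes) differed by a median of 0.45, and 33 of them (16.8%) were at least 2-fold higher and 0 lower. Families that most cells keep silent, such as olfactory receptors (482 genes), had a median of -0.33.

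The members' deviations lay mostly on the array without EPO, as did those of the whole table. Their standard deviation was 0.112 with EPO and 0.430 without EPO, against 0.134 and 0.431 across all probes. Their values ran from -0.20 to 0.41 with EPO and from -1.17 to 0.89 without EPO, with medians of 0.13 and -0.56. Of the 47, 40 (85.1%) stood above the baseline with EPO and below it without EPO, as did 38.8% of all genes. Among the other genes of cellular machinery, 145 of 196 (74.0%) did so. Another 5 stood the other way round, namely NUP62CL, NUP35, NUP210L, TNPO2 and KPNA7, and IPO13 and XPO7 were below the baseline on both arrays. Opposite signs are common in this table, since 15271 of all 18377 genes had them. Across the 47 members the values of the arrays had a Pearson r of -0.67 and a Spearman rho of -0.46, against -0.69 and -0.74 across all genes. These are descriptions across genes that share the same 2 arrays and the same centring, and genes are not independent replicates. Centring, if done per probe, can by itself give opposite signs and a negative correlation, so neither is read as a result about the members.

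**Figure D1:**
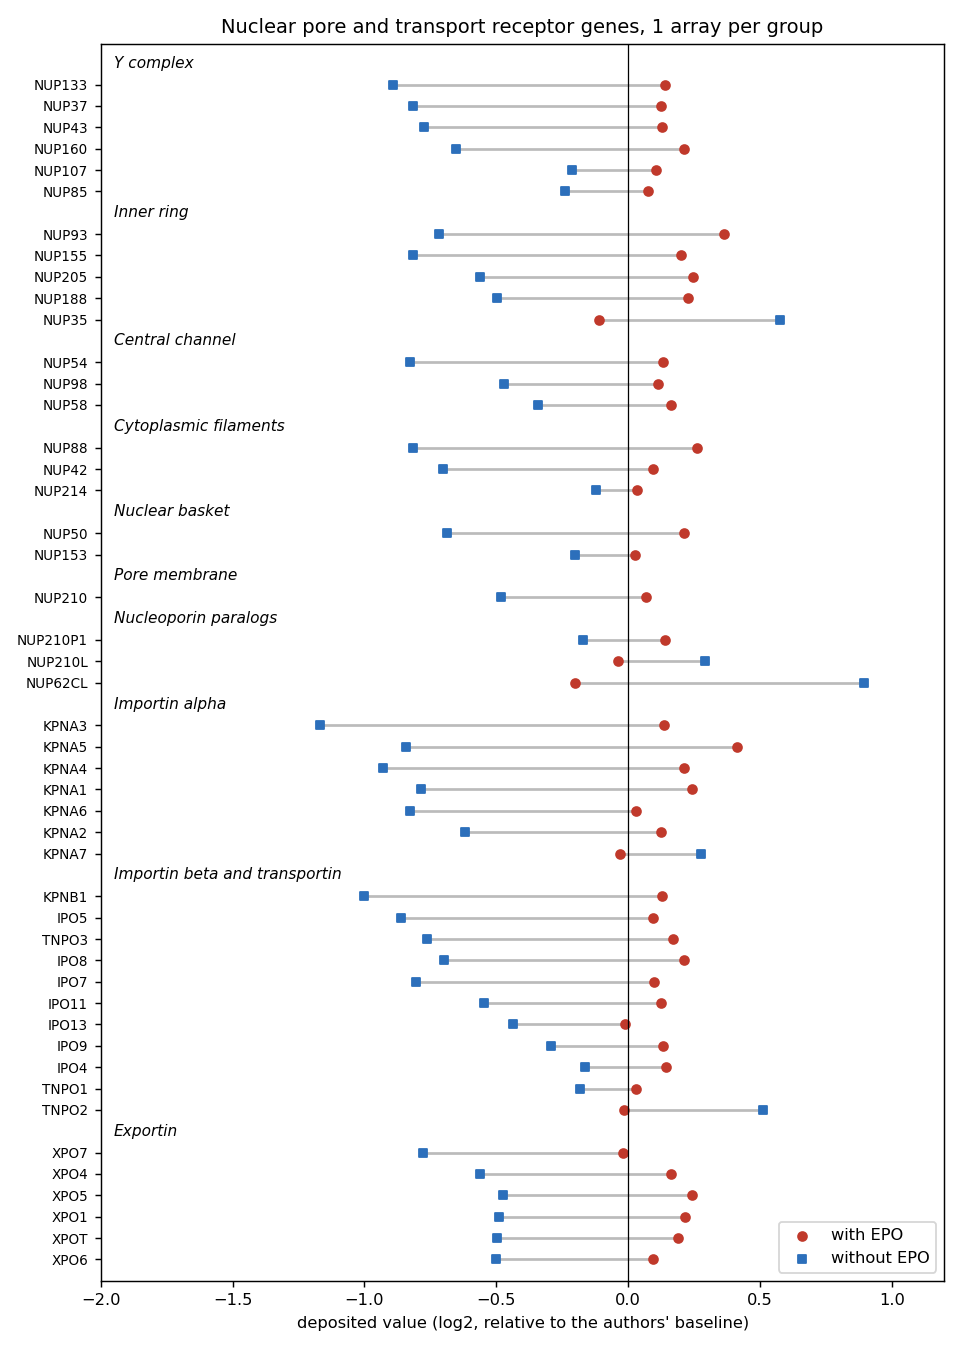
Deposited value of each of the 47 members (log2, relative to the authors' baseline) on the array with EPO (red circles) and the array without EPO (blue squares), grouped by role and sorted by difference. In 40 members the red circle lies above 0 and the blue square below it, and 5 members lie the other way round.

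**Figure D2:**
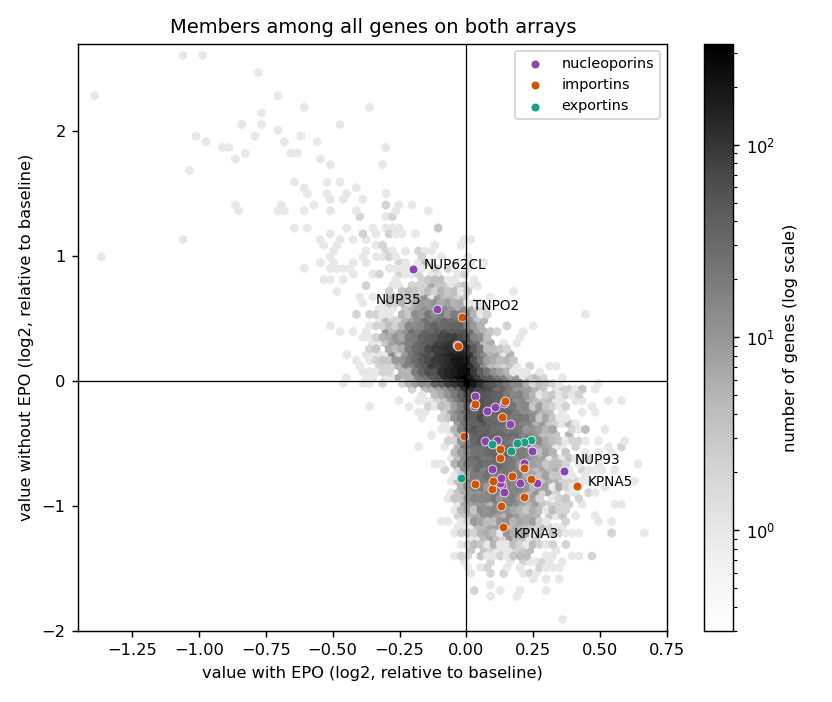
Value with EPO (horizontal) against value without EPO (vertical), both log2 relative to the baseline, for all 18377 genes (grey, number of genes per bin on a log scale) and the members (coloured by class). The members lie mainly in the lower right quadrant, and NUP62CL, NUP35 and TNPO2 lie in the upper left.

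Nucleoporins and transport receptors had almost the same median difference. It was 0.72 for the 23 nucleoporins and 0.74 for the 24 receptors, so that nucleoporins minus receptors came to -0.014. Within the receptors the importins had a median of 0.88 and the exportins 0.71. The classes, as the naming rule draws them, differed in how far their genes were spread. The lower and upper quartiles were 0.31 and 0.92 for nucleoporins, 0.42 and 1.01 for importins, and 0.69 and 0.72 for exportins. At least 2-fold higher were 4 of 23 nucleoporins (17.4%), 5 of 18 importins (27.8%) and 0 of 6 exportins, beside 6.19% of all genes, and the exportins are too few for a contrast by this count. By the mean, importins (0.69) and exportins (0.70) were level. The sign of the gap between nucleoporins and receptors was not stable, since it turned to 0.056 without NUP210L, NUP62CL, NUP210P1 and KPNA7 and came to -0.17 with means.

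**Figure D3:**
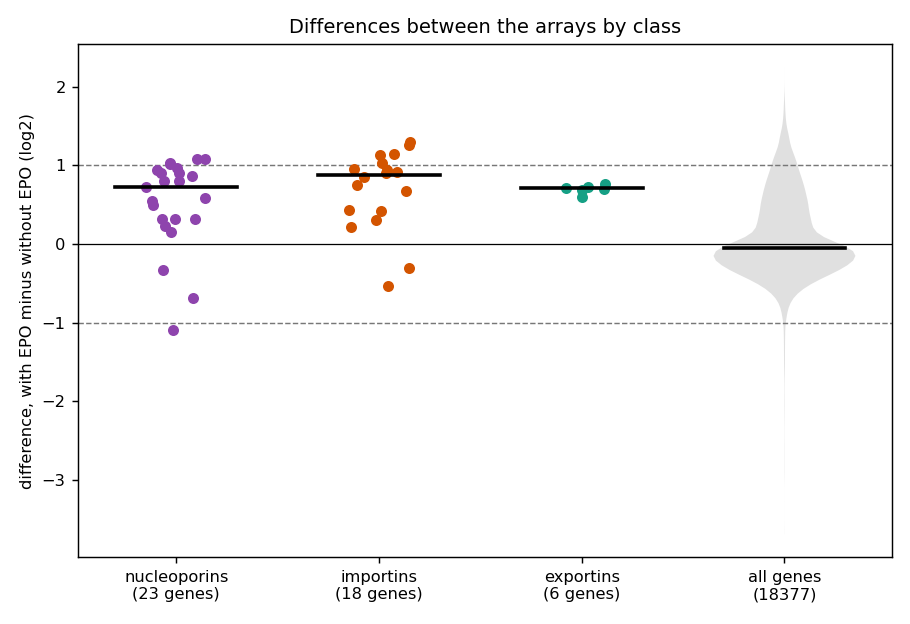
Difference with EPO minus without EPO (log2) for each nucleoporin, importin and exportin (points, with the class median as a bar) and for all genes (grey distribution with its median). The dashed lines mark 2-fold, and the 6 exportins lie within 0.60 to 0.76 while the other classes reach past 1 and below 0.

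The Y complex, the outer scaffold that coats the pore membrane, had 6 members measured, all with a positive difference as deposited (4 of 6 with the median of machinery genes subtracted) and a median of 0.89. NUP133 stood at 0.14 with EPO, against -0.89 without EPO, a difference of 1.03 (2.04-fold). NUP37 followed at 0.94, NUP43 at 0.90 and NUP160 at 0.87. The remaining pair lay well below these, NUP107 at 0.32 and NUP85 at 0.31, although all 6 encode subunits of one complex. This split depends on the naming rule. Of subunits outside it, SEC13 differed by 0.61, between the pair and the others, and SEH1L by 1.30, above them all. NUP107 had values of 0.11 with EPO and -0.21 without EPO, and NUP85 of 0.076 and -0.24.

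In the inner ring, which holds the channel nucleoporins in place, 4 of 5 genes were higher with EPO and 1 lower, with a median of 0.80. NUP93, which anchors the other subunits, stood at 0.36 with EPO, against -0.72 without EPO, a difference of 1.08 (2.12-fold). NUP155 stood at 0.20 with EPO, against -0.81 without EPO, a difference of 1.01 (2.02-fold). The large scaffold proteins NUP205 and NUP188 were within 2-fold, at 0.80 and 0.72. NUP35, which links the ring to the membrane, lay on the other side, at -0.11 with EPO, against 0.58 without EPO, a difference of -0.69 that only 2.68% of all genes undercut.

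The repeat-rich nucleoporins of the channel were within 2-fold, with NUP54 at 0.96, NUP98 at 0.58 and NUP58 at 0.50. Their partner NUP62 is read only through a probe shared with another gene and is not among the members. On the cytoplasmic side, NUP88 stood at 0.26 with EPO, against -0.82 without EPO, a difference of 1.08 (2.11-fold). NUP214, which binds NUP88 in the filaments, differed by 0.16 and was thus near the centre of all genes, while NUP42, a partner of the export factor GLE1, stood at 0.80. In the basket, NUP50, a cofactor that helps importin alpha release its cargo, stood at 0.90, against 0.23 for NUP153, its docking site. NUP210, a membrane-spanning nucleoporin, stood at 0.55.

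Of the 3 members that are copies or relatives of a nucleoporin gene, 2 were lower with EPO, and their median of -0.33 turned to 0.0045 with the median of silent families subtracted. NUP62CL, a relative of NUP62, stood at -0.20 with EPO, against 0.89 without EPO, a difference of -1.10 (2.14-fold lower), and it was the lowest of all members. NUP210L, a paralog of NUP210 known from the testis, stood at -0.037 with EPO, against 0.29 without EPO, a difference of -0.33. The transcribed pseudogene NUP210P1 stood at 0.31. Without these 3, 19 of the 20 remaining nucleoporins had a positive difference as deposited, with a median of 0.80.

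Importin alphas, the adaptors that read the classical nuclear localisation signal, had the highest median of all groups, 1.03 over 7 genes. KPNA3 stood at 0.14 with EPO, against -1.17 without EPO, a difference of 1.30 (2.47-fold), which is percentile 98.2 of all genes. Its closest paralog KPNA4 stood at 0.21 with EPO, against -0.93 without EPO, a difference of 1.14 (2.21-fold). In these 2 genes the deviation lay mainly on the array without EPO, which had the wider spread across all probes.

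KPNA5, KPNA1 and KPNA6 form another subfamily of importin alpha. KPNA5 stood at 0.41 with EPO, the highest value of any member on that array, against -0.84 without EPO, a difference of 1.25 (2.38-fold). KPNA1 stood at 0.24 with EPO, against -0.78 without EPO, a difference of 1.03 (2.04-fold), and KPNA6 at 0.032 and -0.83, a difference of 0.86. The third subfamily was split: KPNA2 differed by 0.75, whereas KPNA7, known from the egg and early embryo, stood at -0.032 with EPO, against 0.28 without EPO, a difference of -0.31. KPNA1 to KPNA6 all had a positive difference, between 0.75 and 1.30.

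The importin beta and transportin group, whose proteins carry cargo through the pore, ranged from -0.53 to 1.13 over 11 genes, with a median of 0.67. KPNB1, the partner of the importin alphas, stood at 0.13 with EPO, against -1.00 without EPO, a difference of 1.13 (2.19-fold), and was the 1 gene of the group past 2-fold. The carriers IPO5 (0.96), IPO8 (0.91) and IPO7 (0.90) and TNPO3 (0.93), which imports SR splicing factors, formed a cluster just within 2-fold. IPO11 stood at 0.67, IPO13, which both imports and exports, at 0.43, IPO9, a histone carrier, at 0.42 and IPO4 at 0.31.

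Close paralogs among these carriers did not always lie together. IPO7 minus IPO8 came to -0.0073. TNPO1, which carries hnRNP proteins, stood at 0.031 with EPO, against -0.18 without EPO, a difference of 0.22, whereas TNPO2, which recognises the same signal, stood at -0.017 with EPO, against 0.51 without EPO, a difference of -0.53. IPO5 stood 0.86 above its relative RANBP6 (0.097), and XPO7 stood 1.02 above its relative RANBP17 (-0.27), which carry symbols outside the naming rule.

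The 6 exportins found by symbol kept together, with differences from 0.60 to 0.76. This range depends on the naming rule. CSE1L, an exportin outside it, differed by 0.87 and RANBP17, the relative of XPO7, by -0.27. XPO1, the exporter of proteins with a leucine-rich signal and of several RNAs, stood at 0.22 with EPO, against -0.49 without EPO, a difference of 0.70 (1.63-fold). XPO5, which exports microRNA precursors, stood at 0.24 with EPO, against -0.47 without EPO, a difference of 0.71. XPOT, the exporter of tRNA, stood at 0.19 with EPO, against -0.50 without EPO, a difference of 0.69. XPO4 differed by 0.73 and XPO6, the actin exporter, by 0.60. XPO7 reached a similar difference, 0.76, from other values: -0.019 with EPO, against -0.78 without EPO.

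Genes of the same machinery whose symbols the rule does not catch were described from lists. Of 15 further nuclear pore genes 11 were measured, with a median difference of 0.48, which came to 0.033 with the machinery median subtracted. At least 2-fold higher were 3 and lower 0, beside 6.19% and 0.898% of all genes. RANBP2, the large SUMO ligase of the cytoplasmic filaments, stood at 0.21 with EPO, against -1.12 without EPO, a difference of 1.33 (2.51-fold). This rests on the 1 probe that names RANBP2 alone, and the 8 probes it shares with copies of the gene differed by 0.34 to 0.45. SEH1L, a subunit of the Y complex, stood at 1.30 and GLE1, which activates the mRNA export helicase, at 1.09, both as differences. That helicase is encoded by DDX19B and its paralog DDX19A, the 2 genes of this list with a negative difference, at -0.20 and -0.17. The nucleoporin TPR of the basket differed by 0.32.

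Of 11 genes of the Ran cycle and related receptors 10 were measured, with a median difference of 0.24, which turned to -0.21 with the machinery median subtracted. None was past 2-fold, and at the shares of all genes (6.19% higher and 0.898% lower) fewer than 1 would be expected in 10 genes, so nothing is read from it. RAN itself differed by 0.29, its GTPase-activating protein on the cytoplasmic side, RANGAP1, by 0.60 and its cofactor RANBP1 by 0.058. NUTF2, which carries Ran back into the nucleus, differed by 0.093. CSE1L, the exportin that returns importin alpha to the cytoplasm, was the highest at 0.87, and RANBP17 the lowest. CSE1L had values of 0.22 with EPO and -0.64 without EPO.

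In mRNA export, 15 of 18 genes were measured, with a median difference of 0.47, which came to 0.017 with the machinery median subtracted. At least 2-fold higher were 3 and lower 0, beside 6.19% and 0.898% of all genes. NXT2, a cofactor of the mRNA export receptor, stood at 1.31, ZC3H11A at 1.24 and the export adaptor ALYREF at 1.06. NXT1, the paralog of NXT2, stood at -0.30, and SEM1 was the lowest at -0.40.

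The size of all these differences depended on the scaling between the arrays. Subtracting the median of all genes (-0.047) left 11 members at least 2-fold higher and 1 lower, beside 7.17% and 0.849% of all genes. Subtracting the machinery median (0.45) left 0 higher and 2 lower (NUP62CL and NUP35), beside 0.756% and 5.68% of all genes, so that these counts were near the share of all genes. With the median of the silent families (-0.33) subtracted, 29 were higher and 0 lower, beside 15.3% and 0.55% of all genes. The class medians stayed positive under each of these 3 scalings, at 0.27 to 1.06 for nucleoporins, 0.43 to 1.21 for importins and 0.26 to 1.04 for exportins. With the machinery median subtracted, 33 members had a positive difference and 14 a negative one, and the 9 that turned negative were NUP107, NUP85, NUP153, NUP214, NUP210P1, IPO4, IPO9, IPO13 and TNPO1. With the silent median subtracted, KPNA7 and NUP210L turned positive, at 0.023 and 0.0045.

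**Figure D4:**
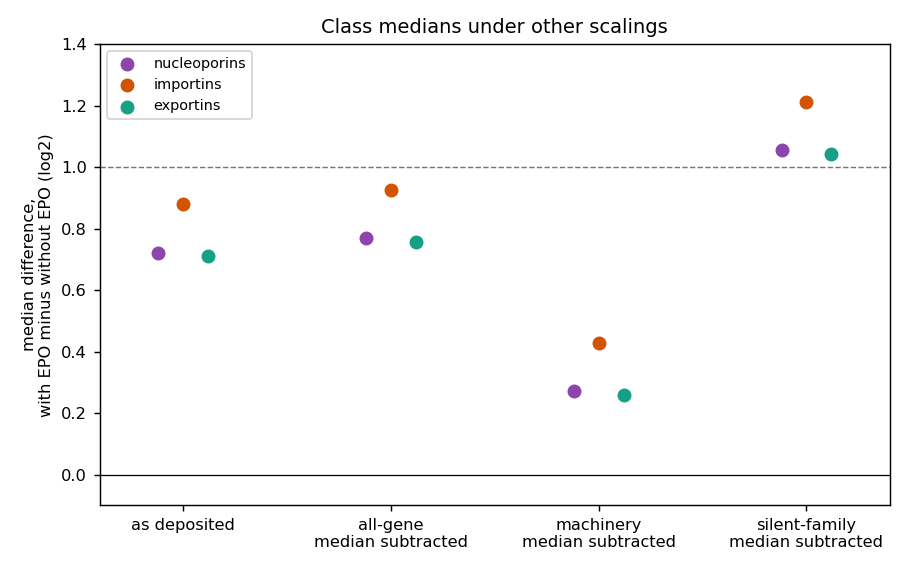
Median difference with EPO minus without EPO (log2) of nucleoporins, importins and exportins as deposited and with the median of all genes, of machinery genes or of silent families subtracted. Each scaling subtracts a constant from all genes, so the 3 medians shift together and keep their order by construction, with importins between 0.43 and 1.21. The dashed line marks 2-fold.

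Correlations of the difference with gene length and promoter composition were near 0 in these members. Across the 47, the difference had a Pearson r of 0.033 and a Spearman rho of 0.014 with the log10 of the gene's length in RefSeq. Across the 40 with a promoter window, they were 0.16 and 0.056 with GC content, and 0.12 and 0.019 with the ratio of observed to expected CpG. These are descriptions across genes, which are not independent replicates.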

How the data were processed

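Total RNA of 2 K562 cultures was hybridised to Affymetrix Gene 1.0 ST arrays, 1 per group, per the labels' protocols. The authors deposited 28869 probe values, read as log2. Not given in the sources used here are the software, summarisation, normalization, baseline and log base. That the deposited log2 values were centred is read from the values, whose column medians are -0.0089 with EPO and 0.052 without EPO. These medians do not show how the centring was done, so centring per probe is an assumption.

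Probes with exactly 1 gene symbol in the platform annotation (19310) were kept, and the 1752 with several and the 7807 not listed were left out. Probes of a gene were averaged. All 47 members were matched by Entrez ID to RefSeq (GRCh38.p14), which gave chromosomes, lengths and promoter windows. The number of arrays limits the precision. Every member is named; genes of the other lists are named past 2-fold or at the ends of their list, and others were chosen after their values were seen. The members and lists were chosen with earlier results of these data known. Alternatives were other scalings, probe rules, symbols, thresholds and the mean. Python 3.11.15, NumPy 2.4.6 and pandas 2.3.3 were used.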

Additional observations from a re-analysis of the deposited data

How the results depend on the processing

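No paired analysis was possible because each group has 1 array. Only the counts over all members and the medians of nucleoporins, receptors, importins and exportins were recomputed under the other settings. The 1.5-fold call was applied to the counts only, and the mean to the class differences only. Adding NUP62 was run only for the nucleoporin median, its gap to the receptors and the count at least 2-fold higher. Settings not listed below left the recomputed medians the same to 2 decimals and the counts within 1.5 times. A constant subtracted from all genes moves each median of a smaller group by that constant. With the medians of all genes, machinery genes and silent families subtracted in turn, the median difference was 0.77, 0.27 and 1.06 for nucleoporins, 0.78, 0.29 and 1.07 for transport receptors, 0.93, 0.43 and 1.21 for importins and 0.76, 0.26 and 1.04 for exportins. With the machinery median subtracted, 0 members were at least 2-fold higher (0.756% of all genes) and 2 lower (5.68%), and with the silent median 29 were higher (15.3%) and 0 lower (0.55%). At 1.5-fold, 30 were higher and 2 lower, beside 18.1% and 4.65% of all genes. By the mean, the differences were 0.52 for nucleoporins, 0.69 for receptors, 0.69 for importins and 0.70 for exportins, and nucleoporins minus receptors was -0.17. Without NUP210L, NUP62CL, NUP210P1 and KPNA7, the medians were 0.80 for nucleoporins, 0.75 for receptors and 0.90 for importins, 0 members were at least 2-fold lower, and nucleoporins minus receptors reversed to 0.056. With only genes of 1 probe, the receptors stood at 0.73, the importins at 0.90 and nucleoporins minus receptors at -0.0045. With the KPNA2 probe of smallest difference, the receptors stood at 0.72 and nucleoporins minus receptors reversed to 0.0015, and with the probe of largest difference that gap was -0.020. Adding NUP62 through its probe shared with IL4I1, chosen after seeing the data, gave 0.65 for nucleoporins and -0.084 for nucleoporins minus receptors. The filter on dim probes, the background correction and the normalization between arrays need intensities and were not run. Signal over background is unknown here, so dim members could not be told from bright ones.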

Other observations

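The nuclear lamina and envelope, which surround the pores, were measured through all 14 genes of their list, with a median difference of 0.24 that turned to -0.21 with the machinery median subtracted. At least 2-fold higher with EPO were TMPO, a lamina-associated protein, at 0.32 with EPO, against -0.88 without EPO, a difference of 1.19 (2.29-fold), and LBR, the lamin B receptor, at 0.14 with EPO, against -0.94 without EPO, a difference of 1.08 (2.12-fold). None was at least 2-fold lower, and the shares of all genes are 6.19% higher and 0.898% lower. The lamins themselves, chosen after seeing the data, did not reach 2-fold, with LMNB1 at 0.87, LMNB2 at 0.80 and LMNA at 0.68. BANF1, which tethers chromatin to the envelope, was the lowest at -0.35.

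Some pore genes are measured through probes that other genes share, and these were left out of the members, except where NUP62 was added as an alternative. The probe of NUP62, shared with IL4I1, stood at 0.036 with EPO, against 0.084 without EPO, a difference of -0.048. The 5 probes of POM121, a membrane nucleoporin, are shared with its near-identical copy POM121C and differed by 0.11 to 0.77. The 8 probes that RANBP2 shares with its RGPD copies differed by 0.34 to 0.45, against 1.33 for the probe that names RANBP2 alone. Transcripts of such copies cannot be told apart on these probes.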
